A study of Mus musculus with 5 samples.

Results

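The proteasome and immunoproteasome genes were described in single γδ T cells of the mouse, as all genes whose symbol starts with Psma to Psmg followed by a digit and that had at least 20 unique molecular identifiers (UMIs, 1 per captured transcript) over the 5 libraries. Of 27998 genes, 50 had such a symbol and 48 passed. The genes left out were Psma8, an α subunit known from testis, with 4 UMIs, and Psmb11, the β subunit of cortical thymic epithelium, with 17 UMIs. The members nearest above the limit were Psmc3ip with 222 and Psme4 with 265 UMIs. Each of the 48 had UMIs in the kept cells of every library. Of these, 46 are subunits, activators, inhibitors or assembly factors, whereas Psmc3ip, a recombination cofactor, and Psme2b, a copy of Psme2, matched by spelling.

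The series compared γδ T cells sorted for the Vγ4 or Vγ6 receptor chain from several tissues by droplet sequencing of transcript 3′ ends, with 1 library per group. Vγ4 cells and Vγ6 cells of ear skin, Vγ6 cells of thymus and Vγ6 cells of peripheral lymph nodes (pLN) came from C57BL/6 mice aged 8 weeks. The remaining library pooled Vγ6 cells without a map to tissues: ear skin of TcrdH2BeGFP mice, thymus of ACT-FLPe mice and pLN of TcrdCreER mice, aged 8 to 10 weeks. The labels give no number of mice. Ear skin was digested with collagenase IV for 75 minutes at 37 °C, and the thymus spent 30 minutes at 37 °C with complement and antibodies to CD4 and CD8β. For pLN the labels state no incubation. Tissue, preparation and library therefore cannot be told apart, and no difference could be tested against the spread between animals.

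The proteasome is the protease that degrades ubiquitin-tagged proteins. Its barrel, the 20S core, has rings of α subunits (Psma) around rings of β subunits (Psmb), and the 19S cap with ATPases (Psmc) and non-ATPases (Psmd) unfolds substrates. Psmb5, Psmb6 and Psmb7 encode the constitutive catalytic subunits. Interferon-γ is known to induce Psmb8, Psmb9 and Psmb10, which take their places in the immunoproteasome and favour peptides for MHC class I, and Psme1 and Psme2, the α and β chains of the PA28 activator. Lymphocytes are known to express these inducible genes without stimulation.

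The inducible genes lie in few places of the genome (coordinates of GRCm38, the same assembly as the mm10 named by the submitters). Psmb9 (chromosome 17, 34181987 to 34187764, minus strand) and Psmb8 (chromosome 17, 34197721 to 34201454, plus strand) flank the peptide transporter gene Tap1 in the MHC. Psmb9 and Tap1 overlap at their starts on opposite strands, and whether counting used strand is not given in the sources used here, so their split is uncertain. The same holds for Psmb8, Psmb10 and Psme1, which the annotation shows overlapping Gm20496, Gm16156 and Emc9 on the other strand. Psmb10 is on chromosome 8 (105935735 to 105938444, minus strand). Psme1 (55578123 to 55581529, plus strand) and Psme2 (55587441 to 55591113, minus strand) lie close together on chromosome 14, and Psme2b on chromosome 11 (48945354 to 48946190, minus strand). Reads of Psme2 and Psme2b may be divided uncertainly because of their likeness.

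The promoters of the 4 inducible genes that were lower in skin are shown because the results turn on those genes. Each runs 5′ to 3′ on the gene's strand from 250 bases before to 50 bases after the start that RefSeq annotates (GRCm38): Psmb8 at chr17:34197945-34198244, Psmb9 at chr17:34187281-34187580, Psmb10 at chr8:105938343-105938642 and Psme1 at chr14:55578244-55578543. For all 4 genes this start lies downstream of the outermost start in the GENCODE gene spans given above. The windows of Psmb8, Psmb9 and Psme1 lie inside those spans, and that of Psmb10 lies partly inside. The words "before the start" refer to RefSeq's start. Capitals mark matches to the searched motifs, and a sequence without capitals had none.
Psmb8: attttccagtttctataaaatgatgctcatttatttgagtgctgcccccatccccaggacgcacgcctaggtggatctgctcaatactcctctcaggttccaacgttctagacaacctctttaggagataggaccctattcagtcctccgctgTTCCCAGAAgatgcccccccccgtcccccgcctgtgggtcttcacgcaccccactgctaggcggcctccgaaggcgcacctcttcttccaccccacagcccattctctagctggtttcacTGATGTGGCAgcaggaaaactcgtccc
Psmb9: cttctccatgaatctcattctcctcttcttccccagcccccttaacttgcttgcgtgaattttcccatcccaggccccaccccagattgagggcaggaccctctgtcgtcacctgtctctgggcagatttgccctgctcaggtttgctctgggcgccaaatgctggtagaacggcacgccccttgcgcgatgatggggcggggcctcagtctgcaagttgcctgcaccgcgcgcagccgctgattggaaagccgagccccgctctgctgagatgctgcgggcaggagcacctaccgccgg
Psmb10: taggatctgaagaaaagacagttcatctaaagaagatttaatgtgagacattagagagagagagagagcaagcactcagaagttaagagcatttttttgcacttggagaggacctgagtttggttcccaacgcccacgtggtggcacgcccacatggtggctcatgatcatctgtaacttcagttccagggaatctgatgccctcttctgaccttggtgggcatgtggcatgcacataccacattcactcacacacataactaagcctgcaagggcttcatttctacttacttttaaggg
Psme1: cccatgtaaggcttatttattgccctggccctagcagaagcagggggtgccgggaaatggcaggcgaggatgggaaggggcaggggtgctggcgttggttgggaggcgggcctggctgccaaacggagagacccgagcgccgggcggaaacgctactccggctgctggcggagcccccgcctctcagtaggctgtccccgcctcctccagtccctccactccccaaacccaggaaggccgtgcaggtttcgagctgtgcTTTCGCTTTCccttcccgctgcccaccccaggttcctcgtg
All 4 motifs were searched on both strands. The interferon-stimulated response element type (GAAA, 2 bases of any kind, GAAA) is held by 3.44% of 32851 promoters of this length in the table. TTCNNNGAA (γ-activated site type) is held by 8.30%, GGGNNTTCC (NF-κB type) by 5.82% and the antioxidant response type (TGA, 4 bases of any kind, GCA) by 12.96%. The Psmb8 promoter held TTCCCAGAA 97 bases before the start and TGATGTGGCA from 23 bases after it. The Psme1 promoter held the first motif on the other strand, as TTTCGCTTTC, from 9 bases after the start. Matches did not overlap each other. No match to the 4 motifs was found in the windows of Psmb9, Psmb10, Psme2, Psmb5 or Psmb6. The table matched 7 of the 8 genes looked up, without Psmb7.

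Kept cells numbered 687 to 2517 per library and held 793463 UMIs in skin Vγ6 to 6607432 in thymus Vγ6, with median UMIs per cell of 1059 to 2156. Levels are given as counts per 1000000 UMIs of the kept cells (CPM), with exact Poisson 95% intervals in parentheses. Ratios have exact conditional binomial intervals, and all intervals cover counting error only. Between 2 and 13 barcodes were shared by any 2 libraries, and 0 to 9 among kept cells. The 10 markers of IL-17-producing γδ T cells, such as Cd3e and Cd163l1, were detected in all 5 libraries, at summed levels of 4601 to 8970 CPM. Together the 48 members made up 0.538% of UMIs in skin Vγ4, 0.569% in skin Vγ6, 0.836% in thymus, 0.786% in the pool and 1.05% in pLN.

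The 3 inducible catalytic genes were far lower in skin than in pLN. Psmb8, whose product carries the chymotrypsin-like activity of the immunoproteasome, was at 107 CPM (92.5 to 122) in skin Vγ4, 93.3 CPM (73.2 to 117) in skin Vγ6, 441 CPM (425 to 457) in thymus and 683 CPM (658 to 708) in pLN. It was 7.32-fold (5.81 to 9.35) lower in skin Vγ6 than in pLN. The Psmb8 intervals of both skin libraries overlapped each other and lay under all others.

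Psmb9, the inducible replacement of Psmb6, was at 9.83 CPM (5.92 to 15.3) in skin Vγ4 and at 5.04 CPM (1.37 to 12.9), from 4 UMIs, in skin Vγ6. The level of Psmb9 was 79.5 CPM (72.8 to 86.6) in thymus and 99.5 CPM (90.2 to 110) in pLN. It was 19.7-fold (7.65 to 72.8) lower in skin Vγ6 than in pLN. The wide interval follows from the few skin counts. Psmb10, the replacement of Psmb7, was at 26.9 CPM (20.1 to 35.3) in skin Vγ4 and at 8.82 CPM (3.55 to 18.2), from 7 UMIs, in skin Vγ6. Its level was 136 CPM (127 to 145) in thymus and 189 CPM (176 to 203) in pLN, so that it was 21.4-fold (10.4 to 53.5) lower in skin Vγ6 than in pLN. For all 3 genes the order of the single-tissue Vγ6 libraries was skin, thymus, pLN, and no pair of neighbours had overlapping intervals.

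**Figure D1:**
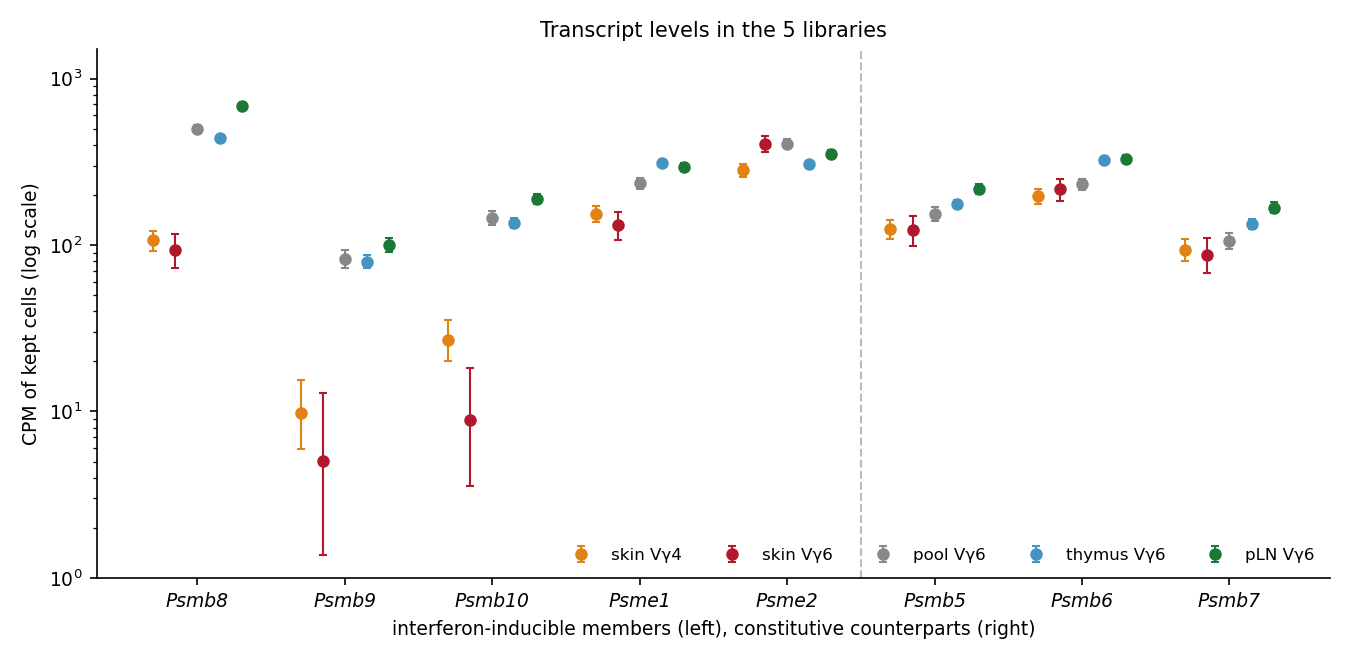
Levels of the 5 inducible members and the 3 constitutive counterparts in the 5 libraries, as CPM on a log axis (points) with exact Poisson 95% intervals (bars). Psmb8, Psmb9 and Psmb10 stand far lower in both skin libraries than in the pool, thymus and pLN, whereas Psme2 is at 405 CPM in skin Vγ6, against 352 CPM in pLN.

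The constitutive counterparts differed less. Psmb5, which carries the chymotrypsin-like activity of the standard proteasome, was at 122 CPM (99.1 to 149) in skin Vγ6, 176 CPM (166 to 186) in thymus and 217 CPM (203 to 232) in pLN. Psmb6 was at 215 CPM in skin Vγ6, 322 CPM in thymus and 327 CPM in pLN, and its intervals in thymus and pLN overlapped. Psmb7 was at 87.0 CPM in skin Vγ6, 134 CPM in thymus and 167 CPM in pLN. None of these reached a 2-fold difference between skin Vγ6 and pLN, with ratios of 0.563 (0.452 to 0.695) for Psmb5, 0.658 (0.558 to 0.772) for Psmb6 and 0.520 (0.400 to 0.667) for Psmb7.

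A share within a library needs no scaling between libraries. UMIs count transcripts once each whatever their length, but genes may differ in capture, so the shares are compared between libraries and not with each other. Of the UMIs of all 6 catalytic genes, the 3 inducible ones took 25.7% (23.1 to 28.4, Clopper-Pearson) in skin Vγ4, 20.1% (16.4 to 24.3) in skin Vγ6, 50.9% (49.8 to 52.0) in thymus and 57.7% (56.6 to 58.9) in pLN. Psmb8 made up 43.3% (35.7 to 51.1) of the Psmb8 and Psmb5 UMIs in skin Vγ6 and 75.9% (74.5 to 77.2) in pLN. Psmb9 made up 2.29% (0.626 to 5.75) of the Psmb9 and Psmb6 UMIs in skin Vγ6 and 23.3% (21.4 to 25.3) in pLN. For Psmb10 with Psmb7, the share was 9.21% (3.78 to 18.1) in skin Vγ6 and 53.1% (50.5 to 55.6) in pLN. In each pair, the intervals of the skin libraries lay below those of thymus, pool and pLN.

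**Figure D2:**
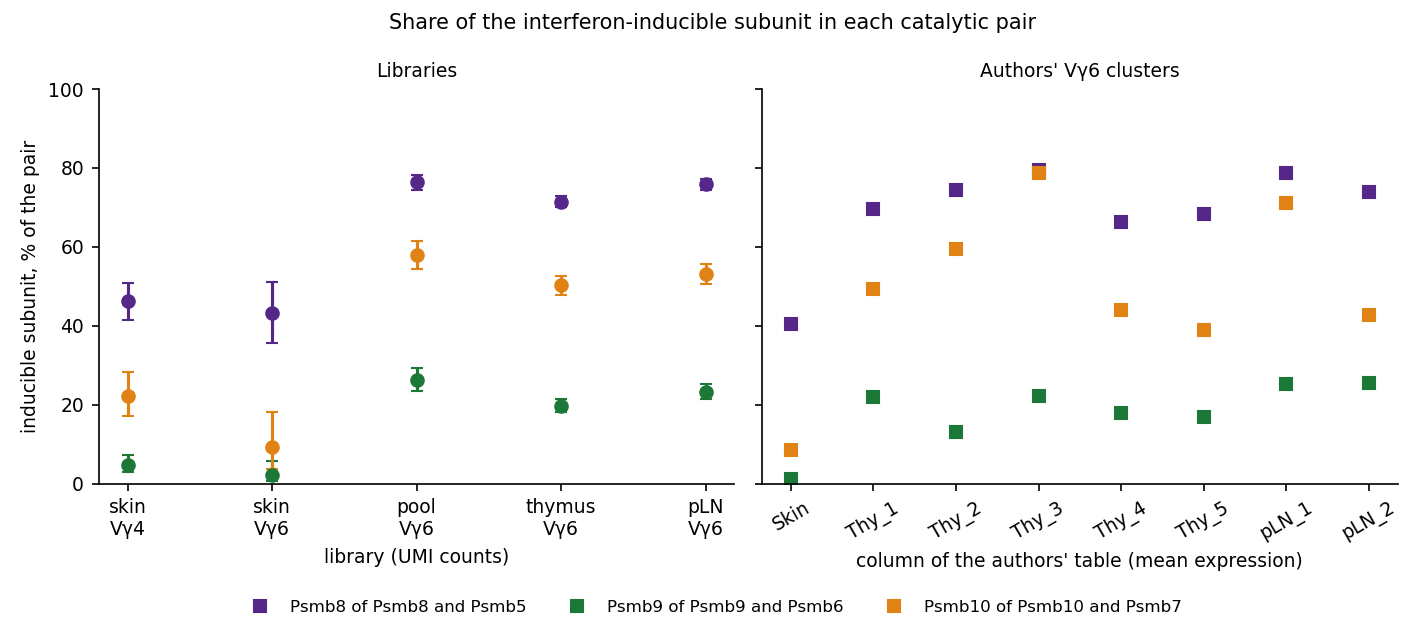
Share of the inducible subunit in each catalytic pair, in percent, from UMI counts of the 5 libraries (left, with Clopper-Pearson 95% intervals) and from mean expression in the 8 clusters of the authors' deposited table (right, no error available). The skin libraries and the Skin column have the lowest share in all 3 pairs.

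The 2 chains of PA28, which opens the core for peptides, went apart. Psme1 was at 154 CPM (137 to 172) in skin Vγ4, 131 CPM (107 to 159) in skin Vγ6, 310 CPM (297 to 324) in thymus and 294 CPM (278 to 311) in pLN, 2.24-fold (1.83 to 2.77) lower in skin Vγ6 than in pLN. The intervals of thymus and pLN overlapped, as did those of the skin libraries. Psme2 was at 280 CPM (257 to 305) in skin Vγ4, 405 CPM (362 to 451) in skin Vγ6, 305 CPM (291 to 318) in thymus and 352 CPM (334 to 371) in pLN. Its ratio of skin Vγ6 over pLN was 1.15 (1.01 to 1.30), and the log2 ratio ranged from -0.20 to 0.57 over 8 alternatives of scaling and cell choice, so no direction is given. The range of Psme2 over the 5 libraries was far narrower than that of the other inducible genes.

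To set the inducible genes against the rest of the particle, each was divided by the sum of the 31 constitutive core and cap genes of the same library. On this scale Psmb10 was 12.1-fold (5.83 to 30.1), Psmb9 11.1-fold (4.31 to 41.0) and Psmb8 4.12-fold (3.27 to 5.26) lower in skin Vγ6 than in pLN. Psme1 was 1.26-fold (1.03 to 1.56) lower. Psme2 was 2.04-fold (1.80 to 2.305) higher in skin Vγ6 on this scale. The difference between the inducible catalytic genes and the constitutive sum was thus larger than counting error, which is the only error these libraries give.

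Calls required a ratio of 2-fold or more, an interval without 1, and 20 CPM or more in the library with the higher level. In skin Vγ6 against pLN, 21 of 48 members were called lower and 0 higher, beside 30.4% of all 5770 measured genes called lower and 16% called higher. The median log2 ratio (with 1 CPM added) was -0.89 over the members and -0.38 over all genes. With TMM factors the members' median was -0.64 and that of all genes -0.08. There 13 members were called lower, beside 23.3% of all measured genes. Of all calls in this comparison, 34.4% were higher. That share was 47.1% under TMM scaling and 48.1% under median-of-ratios scaling. Without the 5 inducible genes, 17 of 43 members were called lower. The median of those 43 was -0.84.

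Among the α subunits of the core ring, 4 of 7 were called lower in skin Vγ6 than in pLN, and the sum of the ring was 1390 CPM in skin Vγ6, against 2772 CPM in pLN. Psma2 was at 197 CPM in skin Vγ6, against 497 CPM in pLN, Psma1 at 146 and 342 CPM, Psma7 at 282 and 642 CPM, and Psma4 at 210 and 422 CPM in the same order. Under 8 alternatives of scaling and cell choice, the call of Psma2 was kept in all 8, whereas that of Psma1 was lost in 4, that of Psma7 in 5 and that of Psma4 in 7. The other 3 had log2 ratios of -0.62 or below. Of the 4 structural β subunits 0 were called, and their sum was 1222 CPM in skin Vγ6, against 2015 CPM in pLN, a ratio of 0.607 (0.567 to 0.649). All 11 genes of these lists had log2 ratios below 0.

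In the cap, 4 of 6 ATPases were called lower, led by Psmc1 at 54.2 CPM (39.2 to 73.0) in skin Vγ6 and 165 CPM (153 to 178) in pLN. Psmc3 was at 106 CPM in skin Vγ6, against 279 CPM in pLN, 2.63-fold lower. Psmc2 and Psmc6 had ratios of 0.476 and 0.445, and the other 2 were not called. Psmc3 was called under all 8 alternatives, but the call of Psmc1 was lost in 1, that of Psmc2 in 3 and that of Psmc6 in 7. Of the 11 non-ATPases, 2 were called lower. These were Psmd3, at 20.2 CPM in skin Vγ6, against 52.5 CPM in pLN, and Psmd13, at 58.0 and 117 CPM in the same order. Psmd3 was called under all 8 alternatives, and Psmd13 under none of the 8. The log2 ratios of the 11 non-ATPases ran from -1.34 to -0.22, and their sum was 1105 CPM in skin Vγ6, against 1701 CPM in pLN.

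Assembly chaperones, which help to build core and cap and do not stay in the particle, held the largest share of calls outside the inducible genes, 5 of 7. Psmd5, which holds back the cap base during assembly, had 7 UMIs or 8.82 CPM (3.55 to 18.2) in skin Vγ6 and 46.1 CPM (39.8 to 53.0) in pLN, 5.22-fold (2.49 to 13.2) lower. Psmg1, Psmg2, Psmg3 and Psmd10 had ratios of 0.336, 0.374, 0.338 and 0.358 in skin Vγ6 over pLN. Psmd5 and Psmg2 were called under all 8 alternatives, and the calls of Psmg3 and Psmd10 were lost in 1 each and that of Psmg1 in 2. Psmd9 went the other way at 56.7 CPM in skin Vγ6, against 38.5 CPM in pLN, a ratio of 1.47 (1.03 to 2.06) that was not called. Most of these genes were near or under 20 CPM in skin Vγ6, so their skin values rest on few UMIs.

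Of the remaining members, Psme4, the PA200 activator, was called lower at 11.3 CPM in skin Vγ6, against 24.2 CPM in pLN. Psme3, the PA28γ gene, and Psmf1, a proteasome inhibitor, were not called. Psmc3ip was called lower at 6.30 CPM in skin Vγ6, against 22.3 CPM in pLN. Under the 8 alternatives the call of Psme4 was lost in 6 and that of Psmc3ip in 5. Psme2b had a ratio of 1.32 (1.03 to 1.67). The 3 highest log2 ratios were those of Psmd9 at 0.55, Psme2b at 0.39 and Psme2 at 0.20, and the 3 lowest those of Psmb10 at -4.27, Psmb9 at -4.06 and Psmb8 at -2.86.

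**Figure D3:**
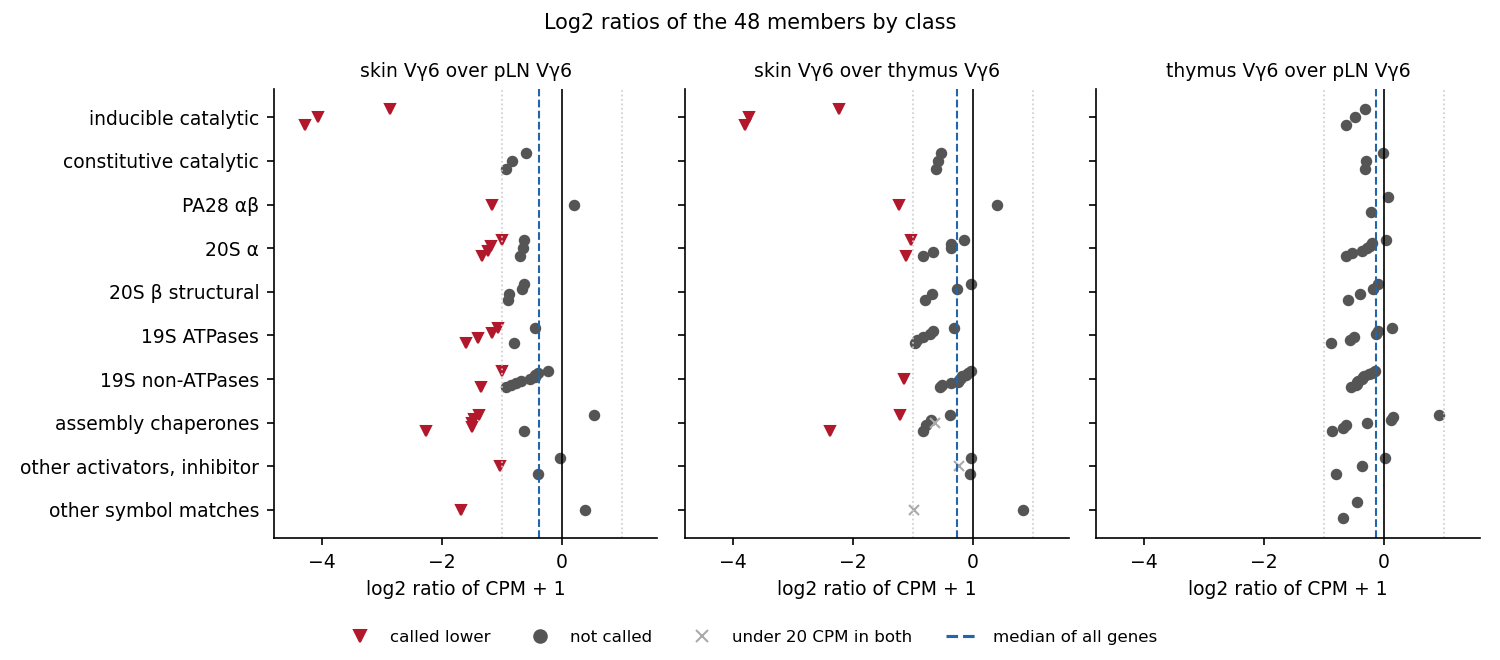
Log2 ratios of CPM (1 CPM added) of the 48 members by class, for skin Vγ6 over pLN, skin Vγ6 over thymus and thymus over pLN. Triangles mark members called lower, the dashed line the median of all measured genes; Psmb8, Psmb9 and Psmb10 lie at -2.86 or below in the first panel and at -2.23 or below in the second.

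In skin Vγ6 against thymus, which uses the same skin library, 9 of 45 measured members were called lower and 0 higher, beside 24.5% of 5655 genes called lower and 13.7% called higher. Of all calls here, 35.8% were higher, and 51.2% with median-of-ratios factors. Psmb10 was 15.4-fold (7.43 to 38.3), Psmb9 15.8-fold (6.12 to 58.1), Psmb8 4.73-fold (3.75 to 6.04) and Psme1 2.36-fold (1.94 to 2.91) lower in skin. The other members called were Psmd5, Psmd3, Psma2, Psma1 and Psmg1, with ratios of 0.176, 0.441, 0.463, 0.490 and 0.412. Of these, Psmd5 was called under all 8 alternatives, and the calls were lost in 1 for Psmd3, in 3 each for Psma2 and Psmg1, and in 6 for Psma1. Psme2 was at a ratio of 1.33 (1.18 to 1.495). The median over the members was -0.58, and -0.27 over all genes.

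In thymus against pLN, no member was called in either direction, beside 11.3% of 5702 genes called lower and 11.8% called higher. Psmb8 was 1.55-fold (1.47 to 1.63), Psmb10 1.39-fold (1.27 to 1.54) and Psmb9 1.25-fold (1.10 to 1.43) lower in thymus, and the 31 constitutive genes together 1.26-fold (1.24 to 1.27) lower. Relative to that constitutive sum, Psmb9 had a ratio of 1.002 (0.880 to 1.14), Psmb10 of 0.900 (0.818 to 0.992) and Psmb8 of 0.811 (0.770 to 0.854). Psme1 had a ratio of 1.32 (1.23 to 1.42) on the same scale. The lowest log2 ratio was that of Psmc1 at -0.88, and the highest that of Psmd9 at 0.93. Psmd9 was at 74.0 CPM in thymus and 38.5 CPM in pLN, a ratio of 1.92 (1.61 to 2.31).

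Skin Vγ4 against skin Vγ6 compared the receptor subsets within ear skin. Of 42 measured members, 0 were called lower and 1 higher, beside 3.18% of 4973 genes called lower and 4.26% called higher. Of all calls here, 57.3% were higher, and 67.5% with TMM. The member called was Psmb10, at 26.9 CPM in skin Vγ4 and 8.82 CPM in skin Vγ6, a ratio of 3.05 (1.38 to 7.96) that rests on 7 UMIs in skin Vγ6. After thinning each cell to 500 UMIs, Psmb10 was no longer called. Psmb8 had a ratio of 1.14 (0.872 to 1.51), Psme1 of 1.17 (0.934 to 1.48) and Psme2 of 0.693 (0.603 to 0.798). The median over the members was 0.00. Keratinocyte markers, 8 of 10 detected in skin Vγ4 and 3 of 10 in skin Vγ6, summed to 1414 CPM in skin Vγ4 and 257 CPM in skin Vγ6. In the neutrophil list, S100a8 and S100a9 gave the whole sum of 213 CPM in skin Vγ4, where Ly6g and Retnlg were at 0. All 4 genes of that list were at 0 in skin Vγ6. Dendritic cell or macrophage markers summed to 39.3 CPM in skin Vγ4 and 586 CPM in skin Vγ6. Cd74 alone gave 35.7 and 406 CPM of these sums in the same order. In skin Vγ6, Cd209a, Flt3, Itgax and Adgre1 were at 0, and Csf1r and Lyz2 had 1 and 3 UMIs. Erythroid markers summed to 1.55 CPM in skin Vγ4 and 115 CPM in skin Vγ6. Whether these transcripts came from other cell types was not tested, nor was their part in the Psmb10 difference.

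Markers of other cells and states differed along with skin and pLN as well. The 12 cycling markers summed to 399.5 CPM in skin Vγ6, 1378 CPM in thymus and 3250 CPM in pLN. The 10 dendritic cell or macrophage markers summed to 586 CPM in skin Vγ6, 123 CPM in thymus and 1471 CPM in pLN. Of these, Cd209a and Adgre1 were at 0 in all 3 libraries, and Flt3 and Itgax had 0 UMIs in skin Vγ6, against 1 and 2 UMIs in pLN. B cell markers summed to 2.52 CPM in skin Vγ6, 21.6 CPM in thymus and 111 CPM in pLN, with Cd79a and Ms4a1 at 0 in skin Vγ6. Keratinocyte markers summed to 257 CPM in skin Vγ6, 53.9 CPM in thymus and 57.9 CPM in pLN, and erythroid markers to 115, 1.97 and 36.1 CPM in the same order. Sfn alone gave 226 CPM of the keratinocyte sum in skin Vγ6, against 21.8 CPM in thymus and 15.4 CPM in pLN. Krt10 went the other way, at 30.2 CPM in skin Vγ6, against 41.8 CPM in pLN. Krt14 had 1 UMI in skin Vγ6, and Krt5, Krt15, Krt1, Krt17, Krtdap, Dmkn and Lor were at 0 there. The median mitochondrial share of UMIs was 5.97% in skin Vγ6, 4.70% in thymus and 3.88% in pLN. Without cells holding 2 or more cycling UMIs, 13 members were called lower in skin Vγ6 than in pLN, beside 30.0% of all measured genes. That step left out 801 of 1458 pLN cells and 47 of 687 skin Vγ6 cells. Without cells holding 2 or more UMIs of another cell type's markers, 15 members were called lower, beside 29.9% of all measured genes. This step left out 655 pLN cells and 66 skin Vγ6 cells. Cd74 alone gave 999 CPM of the dendritic cell or macrophage sum in pLN. Whether the cells left out were of other types was not tested. Psmb8, Psmb9 and Psmb10 were called lower against pLN and against thymus under all 8 alternatives of scaling and cell choice, with folds for Psmb8 against pLN of 6.05 to 9.47. The call for Psme1 against pLN ended with TMM and median-of-ratios factors.

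Cells within each library were split by marker UMIs to see whether the inducible genes varied with a state of the cell, and cells are not replicates. The pool mixes tissues without a map to its cells, so a split of the pool may also sort cells by tissue. That part was not tested. In the pool, cells with 2 or more UMIs of interferon-induced genes held the 3 inducible catalytic genes at 954 CPM, and cells with none at 489 CPM, a ratio of 1.95 (1.75 to 2.18). The constitutive sum had a ratio of 1.18 (1.14 to 1.22) between the same cells, whose median depths were 1618 and 1051 UMIs. In skin Vγ4 the ratio of the 3 genes was 1.73 (1.24 to 2.37), and in skin Vγ6 2.00 (0.871 to 4.06), from 29 cells with such UMIs. It was 1.11 (0.990 to 1.25) in thymus and 0.963 (0.880 to 1.06) in pLN.

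The constitutive genes were higher in cells with cycling UMIs. Cells with 2 or more cycling UMIs held the constitutive sum at ratios over cells with none of 1.29 (1.23 to 1.37) in skin Vγ4, 1.34 (1.22 to 1.47) in skin Vγ6, 1.18 (1.16 to 1.21) in thymus, 1.36 (1.31 to 1.41) in the pool and 1.30 (1.25 to 1.35) in pLN. The interval excluded 1 in all 5 libraries. The 3 inducible catalytic genes had ratios of 1.66 (1.24 to 2.21) in skin Vγ4, 1.13 (0.515 to 2.22) in skin Vγ6, 1.11 (1.03 to 1.19) in thymus, 0.978 (0.871 to 1.10) in the pool and 0.901 (0.817 to 0.995) in pLN. They lay on both sides of 1. The inducible share of catalytic UMIs in cells with cycling UMIs was 28.1% in skin Vγ4, 16.7% in skin Vγ6, 49.4% in thymus, 50.7% in the pool and 55.1% in pLN. In cells with none it was 26.1% in skin Vγ4, 20.1% in skin Vγ6, 52.7% in thymus, 61.8% in the pool and 64.9% in pLN. The intervals of these shares overlapped in the skin libraries and in thymus, and did not in the pool and pLN. Cells with cycling UMIs were also deeper, at a median of 2665 UMIs in pLN against 1424 UMIs in cells with none.

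A split by 8 genes high in the skin libraries (Il17f, Cxcl2, Areg, Il2ra, Icam1, Tnf, Nfkbiz and Rel) was added after seeing the data. In the pool, cells with 2 or more UMIs of these genes held the inducible catalytic genes at 459 CPM and cells with none at 879 CPM, a ratio of 0.522 (0.466 to 0.583). The constitutive sum had a ratio of 0.845 (0.815 to 0.876). In skin Vγ4 the ratio of the inducible catalytic genes was 0.528 (0.351 to 0.827), from 74 cells with none, and in skin Vγ6 0.692 (0.342 to 1.58), from 72 such cells. In thymus it was 1.10 (0.999 to 1.21) and in pLN 0.860 (0.756 to 0.974), from 220 and 46 cells with such UMIs. The tissue of each pooled cell is not known, and no direction for tissues is drawn from this split.

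**Figure D4:**
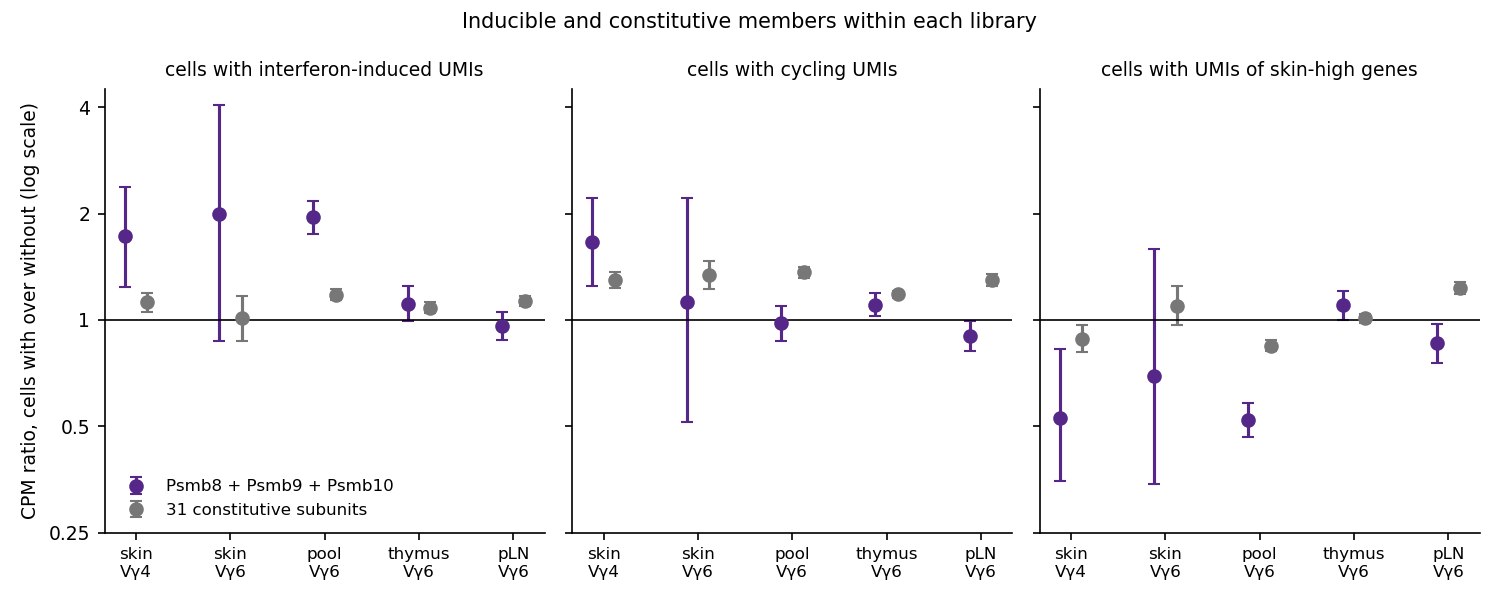
CPM ratio between cells with 2 or more and cells with 0 UMIs of a gene list, within each library, for the sum of Psmb8, Psmb9 and Psmb10 and for the 31 constitutive genes (points, log axis) with exact 95% intervals (bars). The constitutive sum lies above 1 for cycling UMIs in all 5 libraries. For interferon-induced UMIs the inducible sum lies at 1.95 in the pool, whose tissues are mixed. It lies at 1.73 in skin Vγ4, 2.00 in skin Vγ6, 1.11 in thymus and 0.963 in pLN.

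The authors' deposited table gave mean expression for 8 Vγ6 cell clusters, scaled so that each column sums to 10000, with no error. In the authors' deposited table, Psmb8 was at 0.775 in the Skin column, at 3.14 to 6.04 in the 5 thymus columns, and at 7.49 and 6.29 in pLN_1 and pLN_2. Psmb9 was at 0.0259 in Skin, 0.393 to 0.987 in the thymus columns, and 0.904 and 1.12 in the pLN columns of the authors' deposited table. The same table gave Psmb10 at 0.0790 in Skin, 0.883 to 2.05 in the thymus columns, and 2.80 and 1.25 in the pLN columns. Psme1 was at 1.30 in Skin, 2.51 to 3.95 in the thymus columns, and 3.52 and 2.23 in the pLN columns of the authors' deposited table. Psme2 did not follow this order in the authors' deposited table, with 4.23 in Skin, 1.92 to 5.49 in the thymus columns, and 4.67 and 3.08 in the pLN columns.

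Skin was the lowest column for Psmb8, Psmb9, Psmb10 and Psme1 in the authors' deposited table. The pLN columns differed from each other, since Psmb10 was at 2.80 in pLN_1 and 1.25 in pLN_2 in the authors' deposited table. Of catalytic expression in the authors' deposited table, the inducible genes made up 17.5% in Skin, 43.5% to 62.1% in the thymus columns, and 65.7% and 54.7% in pLN_1 and pLN_2. Between the columns Skin and pLN_1, 15 of 46 measured members were at least 2-fold lower in Skin in the authors' deposited table, beside 30.6% of 5732 genes. Between the columns Skin and Thy_1, 9 of 46 were, beside 27.3% of 5714 genes in the authors' deposited table.

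The authors' deposited table of marker results set each cluster against the other cells, on a natural log scale. For Skin it listed 46 members, 44 of them with a negative value, beside 84.9% negative values among all 5053 genes it lists for that cluster. The most negative in the authors' deposited table were Psmb8 at -1.26, Psmb10 at -0.94, Psme1 at -0.60, Psmb9 at -0.56 and Psma2 at -0.56. These values do not rank genes by the fold between mean levels. By the authors' means, Psmb9 was 15.2- to 43.3-fold lower in Skin than in the other columns, and Psma2 1.83- to 2.91-fold. The source of this difference was not tested. The positive ones in Skin were Psme2b at 0.39 and Psmd1 at 0.07 in the authors' deposited table. For pLN_2 the authors' deposited table listed 44 members, 3 of them negative, beside 24.5% negative values among all 5119 genes listed. For Thy_3 it listed 10 members, 1 of them negative, beside 20.8% of 1367 genes, and all 5 inducible genes were among the positive ones. No map from the cells of these Vγ6 clusters to the libraries is given in the sources used here. The clusters therefore cannot be taken as independent of the libraries above.

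Other genes of the ubiquitin and proteasome pathway did not move as one in skin Vγ6 against pLN. Of 15 measured, 2 were called higher and 3 lower, with a median log2 ratio of -0.10. Of all measured genes, 16% were called higher and 30.4% lower, with a median of -0.38. Sqstm1, a receptor that brings ubiquitin-tagged cargo to autophagy, was at 233 CPM in skin Vγ6, against 35.4 CPM in pLN. Pomp, the maturation factor of the core, was at 193 CPM in skin Vγ6, against 572 CPM in pLN, 2.96-fold (2.52 to 3.51) lower. In thymus against pLN, 3 of 15 were called higher and 0 lower, beside 11.8% and 11.3% of all measured genes. Among the 3 were Sqstm1 and Ubb with ratios of 2.70 and 2.32.

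Of a list drawn up for regulators of proteasome transcription, 5 of 6 genes were measured. Nfe2l1, the factor known to raise proteasome genes when the proteasome is impaired, was at 36.6 CPM in skin Vγ6, against 26.6 CPM in pLN, a ratio of 1.37 (0.880 to 2.08). Nfe2l2 had a ratio of 1.82 (1.33 to 2.45), and Mafg was called higher at 54.2 CPM in skin Vγ6, against 21.4 CPM in pLN. Ngly1, which processes the Nfe2l1 protein, was called lower at 17.6 CPM in skin Vγ6, against 45.8 CPM in pLN. Maf, which is also among the markers of IL-17-producing γδ T cells used above, was at 607 CPM in skin Vγ6, 73.1 CPM in thymus and 507 CPM in pLN. A part of Maf in the levels of proteasome genes was not tested.

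Class I antigen processing genes take the peptides that the proteasome makes to the cell surface. Of 11 measured, 4 were called lower and 1 higher in skin Vγ6 against pLN, with a median of -0.57. Of all measured genes, 30.4% were called lower and 16% higher, with a median of -0.38. The peptide transporter genes Tap1 and Tap2 were at 11.3 and 26.5 CPM in skin Vγ6, against 47.5 and 103 CPM in pLN, 4.19-fold (2.16 to 9.29) and 3.89-fold (2.52 to 6.36) lower. Pdia3, a chaperone of the loading complex, was 2.77-fold (2.49 to 3.09) lower. Tapbpl, a peptide editor, was 3.46-fold (2.73 to 4.38) higher. Against thymus, 2 of 11 were called lower, Tap1 and Tap2, and 1 higher, Tapbpl, beside 24.5% and 13.7% of all measured genes.

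Interferon pathway genes moved in both directions. Of the interferon-γ list, 5 of 9 measured genes were called higher and 2 lower in skin Vγ6 against pLN. Of all measured genes, 16% were called higher and 30.4% lower in this comparison. The receptor chain Ifngr2 was at 106 CPM in skin Vγ6, 158 CPM in thymus and 30.9 CPM in pLN. Irf1, a transcription factor known to raise Psmb9 and Tap1, was at 26.5 CPM in skin Vγ6, 64.3 CPM in thymus and 26.6 CPM in pLN. Of 12 measured type I interferon-induced genes, 9 were called lower and 1 higher in skin Vγ6 against pLN, with a median of -2.05. Ifi203 was at 55.5 CPM in skin Vγ6, against 331 CPM in pLN, and Oasl2, the gene called higher, at 25.2 and 3.09 CPM in the same order. In thymus against pLN, where no inducible member was called, 6 of 12 genes of this list were called higher and 0 lower. Of all measured genes there, 11.8% were called higher and 11.3% lower.

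Heat shock genes, known to respond to heat and protein stress, were called higher for 5 and lower for 1 of 11 in skin Vγ6 against pLN. Among all measured genes, 16% were called higher and 30.4% lower. Hspa1a was at 848 CPM in skin Vγ6, 533 CPM in thymus and 27.8 CPM in pLN. In thymus against pLN, 9 of 12 were called higher and 0 lower, beside 11.8% and 11.3% of all measured genes. The part of tissue handling in the levels of the members was not tested.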

How the data were processed

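Per the labels' protocols, sorted γδ T cells were sequenced in 5 libraries with a droplet kit that reads transcript 3′ ends. The authors deposited raw UMI counts per gene and cell. The submitters' processing notes name Cell Ranger 2.0, Seurat 2.3 and mm10 without their roles. The authors also deposited mean expression of 10721 genes in 8 clusters, each column summing to 10000, and a table of natural log fold changes per cluster, per the file headers; how clusters were made is not given in the sources used here.

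Cells with at least 200 genes and at most 10% mitochondrial UMIs were kept, and no doublet caller was run. UMIs were summed per library and divided by the total to give CPM. Floors of 3 counts correspond to 0.454 CPM in thymus to 3.78 CPM in skin Vγ6. Intervals are exact at 95% and cover counting error only. With 1 library per group there is no test of a condition and no p-value is given. Log2 ratios use 1 CPM added. Genes under 20 CPM in both libraries were not measured in that comparison. The fixed rule for named genes gives the 5 inducible members and their counterparts in full, then members called, the 3 highest and lowest log2 ratios per comparison, and up to 4 genes per pathway list. Some genes of these lists are counted but not reported by name here. The members and lists were chosen with earlier results of these data known. The alternatives were TMM (edgeR 4.0.16) and median-of-ratios factors (DESeq2 1.42.0), the mean over cells, other cell filters, thinning, and leaving out cells with cycling or other cells' markers. Calculations used Python 3.11.15, NumPy 2.4.6, SciPy 1.17.1, pandas 2.3.3 and R 4.3.3, and were tested on simulated data. Promoters came from a RefSeq table and gene positions from GENCODE M21.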

Additional observations from a re-analysis of the deposited data

How the results depend on the processing

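No paired analysis was possible because each group had 1 library, and no library could be left out. The 21 members called lower in skin Vγ6 against pLN became 37 with a 1.5-fold rule. They became 13 with TMM factors, median-of-ratios factors, the stricter cell filter, or without cells with cycling markers. Of all genes measured, 23.3% were called lower with TMM, 22.9% with median-of-ratios factors, 21.8% with the stricter filter and 30.0% without cycling cells. The summed ratio of the 5 inducible genes in this comparison, 0.397, was 0.473 with TMM, 0.481 with median-of-ratios factors, 0.347 as a mean over cells, 0.458 with the stricter filter, 0.316 after thinning and 0.346 without cycling cells. In thymus against pLN, where no member was called, 1 was higher with TMM and with the 1.5-fold rule, and 2 were lower after thinning, 1 without cycling cells and 9 with the 1.5-fold rule. The summed ratio there, 0.785, was 0.852 with TMM, 0.705 as a mean over cells and 0.700 after thinning. It was 0.672 without cycling cells and 0.735 without cells holding other types' markers. In skin Vγ6 against thymus, 1 member was higher with median-of-ratios factors, the stricter filter and the 1.5-fold rule, and 21 rather than 9 were lower with the last. The summed ratio there, 0.506, was 0.555 with TMM, 0.598 with median-of-ratios factors, 0.584 with the stricter filter and 0.452 after thinning. In skin Vγ4 against skin Vγ6, the 1 member called higher became 2 with TMM, the mean over cells, no filter and the stricter filter, and 0 after thinning. There 1 member was lower as a mean over cells, with the stricter filter and after thinning. The same number was lower without cycling cells or without cells holding other types' markers, and 2 were with the 1.5-fold rule. The median over members in this comparison, 0.00, was -0.016 as a mean over cells, -0.070 after thinning and -0.0076 without cycling cells.

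The inducible share of catalytic UMIs was 29.7% in skin Vγ4 and 13.2% in skin Vγ6 with the stricter filter, against 25.7% and 20.1% as reported. In pLN it was 61.8% as a mean over cells and 62.1% after thinning, against 57.7%. It was 65.5% there without cycling cells and 62.0% without cells holding other types' markers. In thymus it was 52.7% without cycling cells, and in the pool 61.6% after thinning and 61.9% without cycling cells. The causes of these shifts were not tested. The share was lower in both skin libraries than in the other 3 under each alternative run. Depth limits the ratios of members with few skin Vγ6 UMIs, such as Psmb9 with 4 and Psmb10 and Psmd5 with 7 each. The split by genes high in skin was chosen after seeing the data.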

Other observations

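The pooled Vγ6 library holds cells of ear skin, thymus and pLN, and its values are set beside the single-tissue libraries as a description. Its level lay inside the range of the 3 single-tissue Vγ6 libraries for 35 of 48 members, or 72.9%, beside 68.7% of 6316 genes measured. Members above that range were Psma5, Psme2, Psme2b, Psme3 and Psmg4, and 8 members were below it. Psme2b was the single member at least 2-fold above the range, where 113 genes, or 1.79% of those measured, were. Psme2b was at 326 CPM in the pool, against 111 CPM in skin Vγ6, 61.7 CPM in thymus and 84.3 CPM in pLN. The ratio of the pool was 2.94 (2.36 to 3.70) over skin Vγ6, 5.28 (4.70 to 5.94) over thymus and 3.87 (3.42 to 4.38) over pLN. Of the UMIs of Psme2 and Psme2b together, Psme2b took 44.5% (42.4 to 46.6) in the pool and 16.9% to 21.5% in the other 4 libraries. Because Psme2b is a copy of Psme2 and also overlaps Gm12185 and 9930111J21Rik1 on its own strand, the assignment of its reads is uncertain. The pool came from other mouse lines than the single-tissue libraries, and line and library cannot be told apart.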
